A study of Caenorhabditis elegans with 4 samples.

Results

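The dosage compensation complex of Caenorhabditis elegans is the set of proteins that binds the X chromosomes of hermaphrodites. Its genes were chosen by name from the array's annotation: sdc-1, sdc-2, sdc-3, dpy-21, dpy-26, dpy-27, dpy-28, dpy-30 and mix-1. Of these 9 genes, 8 had a probe with values on at least 3 of the 4 arrays, among 19214 features tested in all (15059 named genes and 4155 probes with no single gene name). No probe was matched to dpy-21, which encodes a histone demethylase of the complex, and it was not analysed here. Expression was measured on 4 DNA microarrays of 2 colours. Channel 2 of each array held messenger RNA from adult males mutant in him-5, from preparations 1 to 4. Channel 1 held wild-type reference RNA, which 1 label calls mixed-stage and the others mixed. The loss of him-5 disturbs X-chromosome segregation and so raises the number of males, and the labels name no allele. Sex, genotype and stage differ together between the males and the reference, and their parts cannot be told apart. The labels do not say that the preparations were separate cultures, so the p-values reflect variation among them that may be technical.

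In C. elegans, hermaphrodites carry a pair of X chromosomes and males carry a single one. The complex lowers transcription from each X chromosome of the hermaphrodite, so that the sexes make similar amounts of X-linked transcripts. SDC-2, which is made in XX and not in XO embryos, brings the complex to X together with SDC-3, DPY-30 and SDC-1. The part that acts on chromosome structure is a condensin, built from MIX-1, DPY-27, DPY-26, DPY-28 and CAPG-1. In XO embryos, XOL-1 keeps SDC-2 off, and the complex does not assemble on X.

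Values are log2 ratios, likely males over reference. The direction rests on the labels' wording and the channel order, since no dye is named. A negative value means less of that transcript in males, relative to the other transcripts. Each gene was tested against 0 with limma over all 19214 features, and was called at a Benjamini-Hochberg adjusted p under 0.05. The test leaves out the spread of the reference itself. In whole-worm RNA, fewer cells of a type and less RNA per cell cannot be told apart. Preparation 2 stood apart on more than 1 group of genes outside the complex. The 63 ribosomal protein genes had a median log2 ratio of 1.10 there, against 0.13, 0.04 and 0.33 on preparations 1, 3 and 4. The 957 chemoreceptor genes had a median of 0.76 there, against 0.14, 0.20 and 0.27. The mutated gene, him-5, stood at -2.13, -1.61, -2.26 and -3.11 on preparations 1 to 4, and where its probe lies relative to the mutation is not known here. The medians over all features were -0.01, 0.05, 0.001 and 0.07.

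Messenger RNA of the complex was mostly lower in him-5 males. Of the 8 genes, 7 were called lower and 0 higher, and dpy-30 was not called. Over all features tested, 23.6% were called lower and 22.1% higher. The median log2 ratio of the 8 genes was -0.91, against 0.05 for all features. It was -0.90, -1.07, -1.003 and -0.72 on preparations 1 to 4. Of the 32 values that the 8 genes have on the arrays, 31 lay below 0, and 7 of the 8 genes were below 0 on all 4 arrays, as were 30.2% of all features on the arrays that measured them. Without preparation 3, 4 of the 8 were called lower, against 15.3% of all features, and without preparation 2, 6 were, against 21.9%. At their means, the 7 called genes stood between 1.54-fold and 2.48-fold below the reference.

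**Figure D1:**
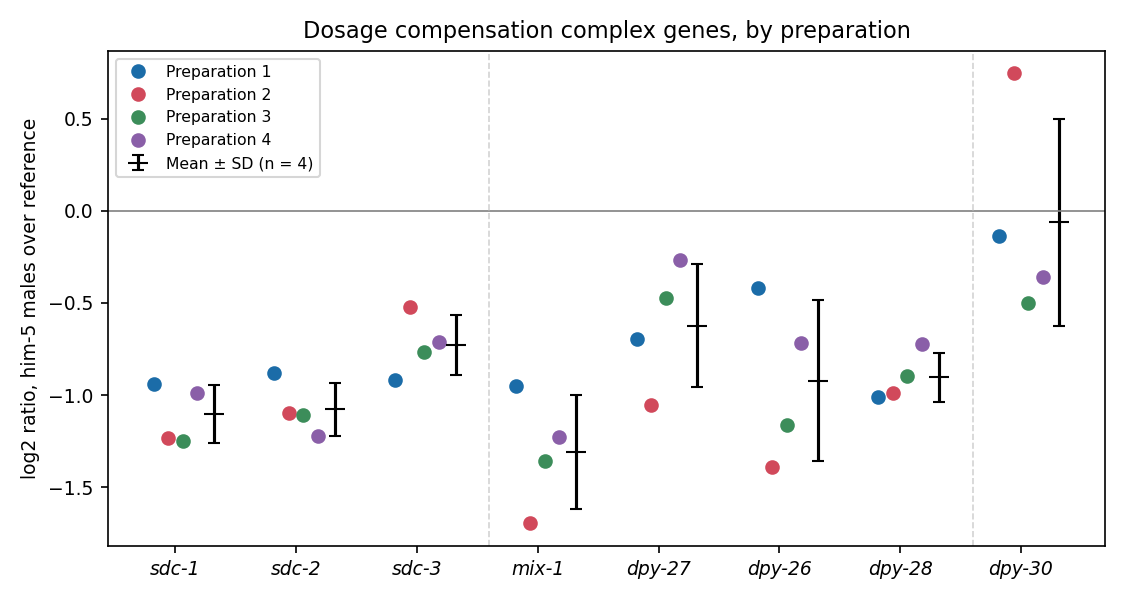
The plot of log2 ratios by preparation shows each dosage compensation complex gene on the horizontal axis and its log2 ratio (him-5 males over reference) on the vertical axis, with 1 point per array and the mean ± SD (n = 4) beside them. Dashed lines divide the SDC genes, the condensin genes and dpy-30. The only point above 0 is dpy-30 on preparation 2, at 0.75.

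The SDC genes encode the proteins that act first. SDC-2 is the hermaphrodite-specific protein that starts assembly on X, and its gene lies on X itself. The log2 ratio of sdc-2 (CELE_C35C5.1) was -0.88, -1.10, -1.11 and -1.22 on preparations 1 to 4. The arrays lay close together, and the mean was -1.08 ± 0.14 (SD, n = 4), which is 2.11-fold below the reference (limma adjusted p = 0.00183). SDC-1 is a zinc finger protein, needed both for dosage compensation and for repression of the male gene her-1. The log2 ratio of sdc-1 (CELE_F52E10.1), also an X-linked gene, was -0.94, -1.23, -1.25 and -0.99, with a mean of -1.10 ± 0.16 (SD, n = 4, limma adjusted p = 0.00172). Its range overlapped that of sdc-2, and the sign of their difference was not the same on all arrays.

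SDC-3, another zinc finger protein, helps to recruit the condensin to X. The log2 ratio of sdc-3 (CELE_C25D7.3, chromosome V) was -0.92, -0.52, -0.76 and -0.71, with a mean of -0.73 ± 0.16 (SD, n = 4, limma adjusted p = 0.0101). It was above sdc-1 on each of the 4 arrays, by 0.37 ± 0.29 (SD, n = 4) on the log2 scale. An exact sign-flip test of that difference gave p = 0.13, the smallest value that 4 arrays allow. The call of sdc-3 was lost without preparation 1 (-0.67, adjusted p = 0.0508) and without preparation 3 (-0.72, adjusted p = 0.0623), while sdc-1 and sdc-2 were called without any 1 preparation.

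MIX-1 is the SMC2-type ATPase that every C. elegans condensin uses, in dosage compensation and in mitosis and meiosis alike. Its gene (CELE_M106.1, chromosome II) had the lowest mean of the 8. The log2 ratio was -0.95, -1.70, -1.36 and -1.23 on preparations 1 to 4, lowest on preparation 2. The mean was -1.31 ± 0.31 (SD, n = 4), or 2.48-fold below the reference, with a 95% interval from -1.74 to -0.88 (limma adjusted p = 0.00135). It was the only gene of the complex with more than 1 probe. The first probe averaged -1.30 ± 0.48 and the second -1.32 ± 0.22 (SD, n = 4 each), and they differed most on preparation 2, at -1.99 and -1.40. Their means thus differed by less than the spread over the arrays, and each was called when probes were tested singly (adjusted p = 0.00302 and 0.00102).

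DPY-27 is the SMC4-type partner of MIX-1 and the only subunit that marks the dosage compensation condensin out from the others. The log2 ratio of dpy-27 (CELE_R13G10.1, chromosome III) was -0.70, -1.05, -0.47 and -0.27, with a mean of -0.62 ± 0.34 (SD, n = 4, limma adjusted p = 0.0312). This was the highest adjusted p of the 7 calls. It was lost without preparation 1 (-0.60, adjusted p = 0.100), without preparation 2 (-0.48, adjusted p = 0.0612) and without preparation 3 (-0.67, adjusted p = 0.0927). On all 4 arrays dpy-27 lay above mix-1, by 0.69 ± 0.32 on the log2 scale (SD, n = 4, exact sign-flip p = 0.13, the smallest possible). It averaged -0.87 on preparations 1 and 2, whose titles carry the earlier dates, and -0.37 on preparations 3 and 4.

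DPY-26 is the kleisin subunit, which closes the ring, and DPY-28 is a HEAT-repeat subunit. Both also serve the mitotic condensin I. The log2 ratio of dpy-26 (CELE_C25G4.5, chromosome IV) was -0.42, -1.39, -1.16 and -0.72, a wide spread with a mean of -0.92 ± 0.44 (SD, n = 4, limma adjusted p = 0.0103). Its call was lost without preparation 3 (-0.84, adjusted p = 0.0570). The gene dpy-28 (CELE_Y39A1B.3, chromosome III) varied least of the 8, with -1.01, -0.99, -0.89 and -0.72. Its mean was -0.90 ± 0.13 (SD, n = 4, limma adjusted p = 0.00382). The means of dpy-26 and dpy-28 lay 0.02 apart, and neither gene was the lower one on all 4 arrays.

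DPY-30 differs from the rest in that it also belongs to the SET1/MLL complexes, which methylate histone H3 in both sexes. The log2 ratio of dpy-30 (CELE_ZK863.6, chromosome V) was -0.14, 0.75, -0.50 and -0.36. It was below 0 on 3 arrays and above 0 on preparation 2, and the mean of -0.06 ± 0.56 (SD, n = 4) was not called (limma adjusted p = 0.842, 95% interval -0.62 to 0.49). Without preparation 2 the mean was -0.33 (adjusted p = 0.138), and it was 0.08 without preparation 3 and 0.04 without preparation 4. On the pair of arrays with earlier dates, preparations 1 and 2, dpy-30 averaged 0.31, and on the later pair it averaged -0.43.

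From low to high, the means ran mix-1, sdc-1, sdc-2, dpy-26, dpy-28, sdc-3, dpy-27 and dpy-30. Most neighbours in that order could not be separated: of the 7 adjacent pairs, 2 kept their order on all 4 arrays, mix-1 below sdc-1 and dpy-28 below sdc-3. Of all 28 pairs, 15 kept their order on all 4 arrays. Of the 7 pairs that hold dpy-30, 6 did so, the exception being dpy-27. No pair could reach an exact p below 0.13, so the order is a description. The SD over the arrays was 0.13 to 0.56 among the 8 genes, with a median of 0.24, against a median of 0.40 over all features.

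Ranks within an array do not depend on how the array was centred. On preparations 1 to 4, the share of features with a lower log2 ratio than mix-1 was 10.1%, 6.59%, 6.37% and 9.501%. The corresponding shares for sdc-1 were 10.4%, 14.3%, 8.09% and 13.7%, and those for sdc-2 were 11.7%, 17.2%, 10.4% and 9.54%. These 3 genes were thus in the lowest 20% of features on every array, as were 8.83% of all features on the arrays that measured them. For dpy-27 the shares were 16.9%, 18.2%, 27.9% and 35.1%. For dpy-30 they were 42.0%, 75.2%, 26.8% and 31.7%, so that only preparation 2 placed it in the upper part of the array.

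**Figure D2:**
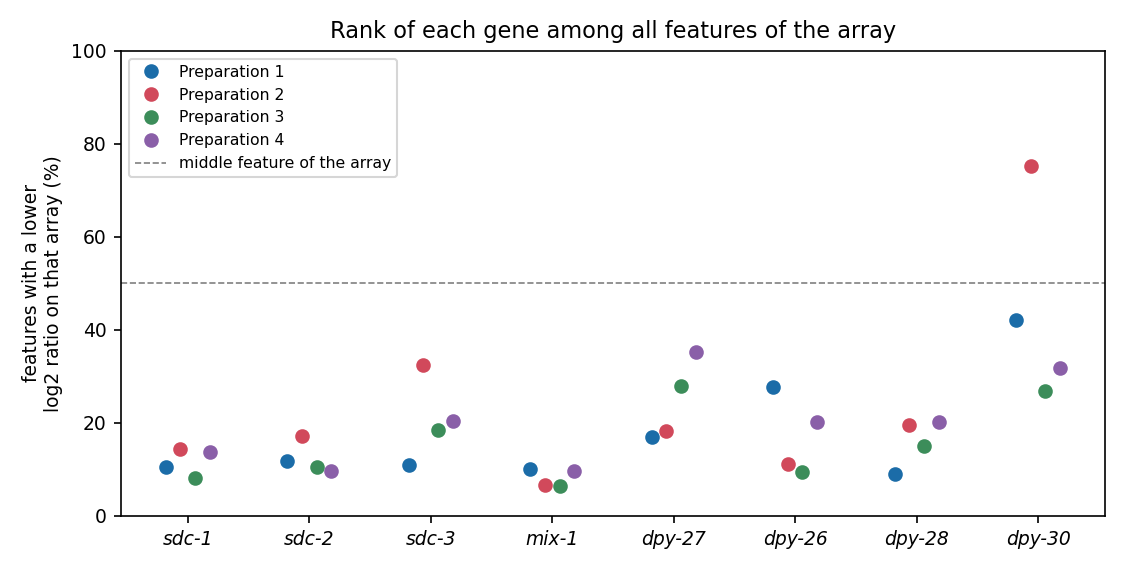
The plot of ranks shows, for each dosage compensation complex gene and each preparation, the share of features (vertical axis, in percent) with a lower log2 ratio on that array. The points of mix-1 lie between 6.37% and 10.1%, and those of dpy-30 between 26.8% and 75.2%.

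Subunits of the other condensins were set beside those of the complex. Condensin I differs from the dosage compensation condensin by having SMC-4 in place of DPY-27, and condensin II combines MIX-1 and SMC-4 with KLE-2, CAPG-2 and HCP-6. CAPG-1, the HEAT-repeat subunit that condensin I and the dosage compensation condensin share, is not among the 9 genes. Its log2 ratio was -0.40, -1.69, -0.94 and -0.92, with a mean of -0.99 ± 0.53 (SD, n = 4, limma adjusted p = 0.0116). Of the 4 condensin genes measured outside the 9, capg-1 among them, 3 were called lower. The gene hcp-6 was not among the features tested. The condensin II genes capg-2 and kle-2 stood at -1.60 ± 0.37 and -0.77 ± 0.22 (SD, n = 4), with capg-2 below all 8 genes of the complex in its mean. Lower values were therefore measured for subunits outside the complex too.

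The SMC4-type genes were compared within each array. The log2 ratio of smc-4 was -0.31, -0.18, -0.31 and -0.58, with a mean of -0.34 ± 0.17 (SD, n = 4) that was not called (limma adjusted p = 0.1247, 95% interval -0.73 to 0.04). The difference dpy-27 minus smc-4 was -0.39, -0.88, -0.16 and 0.31 on preparations 1 to 4. It averaged -0.28 ± 0.49 (SD, n = 4) and changed sign on preparation 4 (exact sign-flip p = 0.375). Without preparation 2 the difference was -0.08. The gene smc-4 was called lower with chemoreceptor centring and with array weights, and not with ribosomal or median centring or with scale or quantile normalization. The call of dpy-27 and the lack of one for smc-4 thus do not show that these genes differ. They encode related proteins, probe sequences were not used here, and whether a probe reads both transcripts was not tested.

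**Figure D3:**
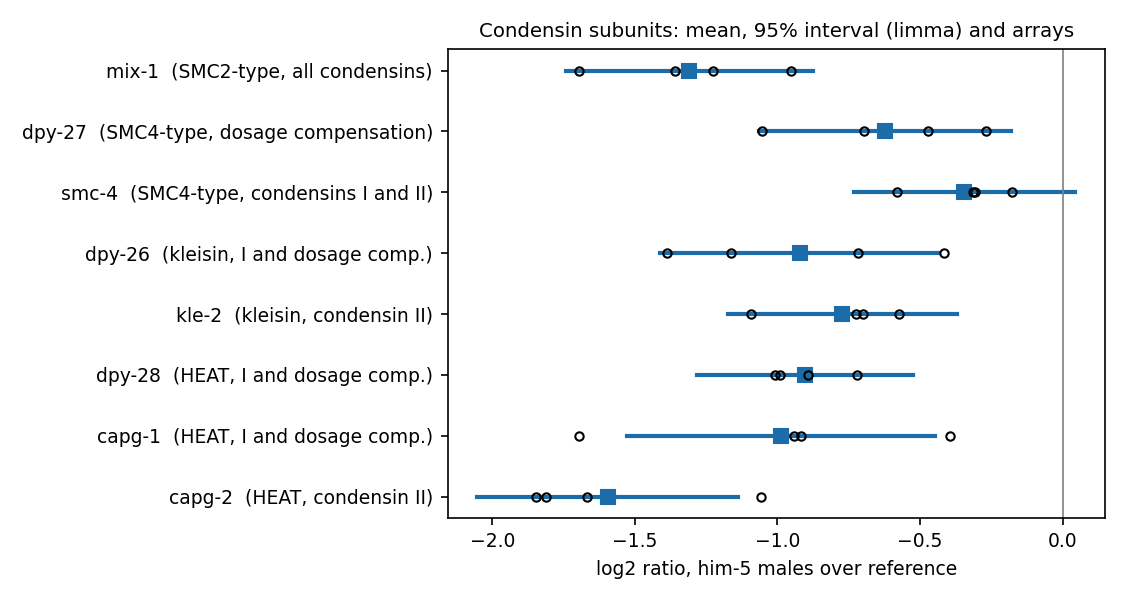
The plot of condensin subunits shows log2 ratios (horizontal axis, him-5 males over reference) with squares for means, bars for the 95% interval of the limma fit and open circles for the 4 arrays. The interval of smc-4 reaches above 0, to 0.04, and those of the 7 other genes end below 0.

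The genes that read the number of X chromosomes, and the genes next in the sex pathway, act above or beside the complex. Of 7 such genes, 4 were called lower and 1 higher, with a median of -0.62. The gene her-1, which encodes a secreted signal for male fate and is repressed by the SDC proteins in hermaphrodites, was higher: 2.30, 1.80 and 1.20 on preparations 1, 3 and 4, with no value on preparation 2. Its mean was 1.77 ± 0.55 (SD, n = 3, limma adjusted p = 0.00267), or 3.40-fold above the reference. The switch gene xol-1, whose product keeps SDC-2 off in embryos with a single X, was not called, at 0.32, 1.25, 0.09 and 0.21 (adjusted p = 0.130). Preparation 2 was the high array, and without it the mean of xol-1 was 0.21.

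The lower genes encode signals that xol-1 responds to in the embryo, both X-linked ones that repress it and an autosomal one that activates it. The repressors were the nuclear receptor gene sex-1 at -0.78 ± 0.41, the homeobox gene ceh-39 at -0.72 ± 0.26 and the RNA-binding protein gene fox-1 at -0.62 ± 0.40 (SD, n = 4). The activator was the T-box gene sea-1 at -1.04 ± 0.21 (SD, n = 4). The genes ceh-39 and fox-1 were named after their values were seen. Without preparation 1, 2 of the 7 genes were called lower, against 18.99% of all features, and without preparation 3 only sea-1 was, against 15.3%. The calls of sex-1 (adjusted p = 0.0725 and 0.0955) and fox-1 (adjusted p = 0.155 and 0.124) were lost in both of these fits, and that of ceh-39 without preparation 3 (adjusted p = 0.0847). The call of fox-1 was also lost without preparation 4 (adjusted p = 0.0931), with scale normalization (adjusted p = 0.0504) and with the period as a covariate (adjusted p = 0.0507). The remaining gene, sea-2, another autosomal signal, was not called at -0.10 ± 0.77 (SD, n = 4).

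DPY-30 works in the SET1/MLL complexes with WDR-5, ASH-2, RBBP-5 and the methyltransferases SET-2 and SET-16. Of 11 genes of these complexes, 5 were called lower and 0 higher, against 23.6% and 22.1% of all features. Their median was -0.41. The methyltransferase genes set-2 (0.02 ± 0.09, SD, n = 3) and set-16 (-0.10 ± 0.61, SD, n = 4) were not called. Neither were ash-2 (-0.41), wdr-5.2 (-0.21), wdr-5.3 (0.19) and pis-1 (-0.19). The lower ones were hcf-1 at -1.58 ± 0.45, cfp-1 at -1.35 ± 0.28, wdr-5.1 at -1.10 ± 0.11, rbbp-5 at -0.87 ± 0.55 and utx-1 at -0.69 ± 0.26 (SD, n = 4), the last 2 named after their values were seen. The call of utx-1 was lost without preparation 1 (adjusted p = 0.0689) and without preparation 3 (adjusted p = 0.101), and that of rbbp-5 without preparation 2 (adjusted p = 0.0505) and without preparation 4 (adjusted p = 0.0572).

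Further chromatin genes that act on X or beside the complex were mostly lower. Of 8 genes, 6 were called lower and 0 higher, with a median of -1.15. They included set-1 at -1.57 ± 0.35 and set-4 at -1.06 ± 0.26 (SD, n = 4), which encode histone H4 methyltransferases. The histone H2A variant gene htz-1 stood at -1.23 ± 0.17, met-2 at -1.44 ± 0.14 and sir-2.1 at -1.60 ± 0.58 (SD, n = 4). Of 6 genes of the MES group and its partners, which silence X in the germ line, 4 were called lower and 0 higher (median -0.76): mes-6 at -1.24 ± 0.15, mes-3 at -1.16 ± 0.87, mes-4 at -0.92 ± 0.30 and mrg-1 at -0.59 ± 0.24 (SD, n = 4). Without preparation 1, 2 of the 6 were called lower, against 18.99% of all features. The calls of mes-3 (adjusted p = 0.0538) and mrg-1 (adjusted p = 0.103) were lost in that fit. That of mrg-1 was also lost without preparation 3 (adjusted p = 0.138) and without preparation 4 (adjusted p = 0.0722). The gene mes-2 stood at 0.44 ± 0.08 (SD, n = 4) and was not called (adjusted p = 0.0535), but was called higher with scale or quantile normalization, array weights or the period as a random block (adjusted p between 0.0253 and 0.0403).

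Cohesin and the SMC-5/6 complex are ring complexes of the same protein family, with other tasks. Of 11 measured genes, 8 were called lower and 0 higher, with a median of -0.85. Examples were smc-5 at -1.46 ± 0.42, evl-14 at -1.42 ± 0.82 and wapl-1 at -1.39 ± 0.30 (SD, n = 4). The cohesin kleisin gene scc-1 was not called at 0.50 ± 0.52 (SD, n = 4), but it was called higher under array weights, at 0.83 (adjusted p = 0.00563), and without preparation 2, at 0.71 (adjusted p = 0.0365). Without preparation 3, 5 of the 11 were called lower, against 15.3% of all features.

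Lists of oocyte, DNA replication, sperm and male neuron markers went both ways. Of 20 oocyte marker genes, 18 were called lower and 1, the eggshell gene cpg-2 at 0.58 ± 0.29 (SD, n = 4), higher, with medians of -1.83, -1.12, -1.23 and -1.75 over the list on preparations 1 to 4. Of 14 DNA replication genes, 12 were called lower and 0 higher, with medians of -1.27, -1.12, -0.95 and -1.18. The oocyte and DNA replication medians were lowest on preparations 1 and 4. Those of the complex and of the cohesin and SMC-5/6 list were lowest on preparations 2 and 3. Whether these patterns differ was not tested. The call of cpg-2 was lost with ribosomal centring (0.18) and chemoreceptor centring (0.24), and without preparation 1, 3 or 4 (adjusted p between 0.0756 and 0.178), and at an adjusted p under 0.01. Of 27 sperm markers, 26 were called higher and 0 lower, with medians between 4.09 and 5.04. Of 10 male neuron markers, 8 were called higher and 1, cwp-4 at -0.64 ± 0.45 (SD, n = 4, limma adjusted p = 0.0425), lower. Under centring on ribosomal protein genes 4 were called higher, and under centring on chemoreceptor genes 5. The call of cwp-4 was lost with ribosomal centring, without preparation 1, 2 or 3, and at an adjusted p under 0.01. Ratios give no level, so whether any of these markers was absent cannot be said. The part of these cell contents in the values of the complex was not tested.

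**Figure D4:**
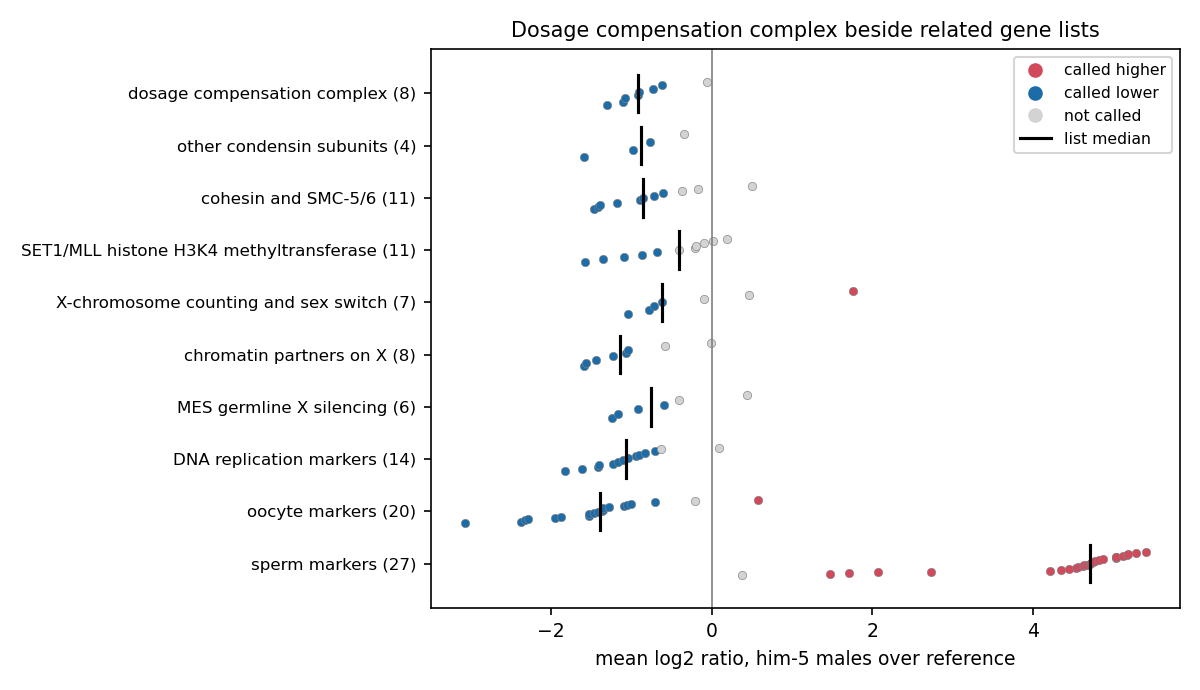
The plot of gene lists shows the mean log2 ratio of each gene (horizontal axis, him-5 males over reference) in 10 lists, with the number of measured genes in brackets, points coloured by call and a black line at each list median. The complex (median -0.91) lies between the list of X-counting genes (-0.62) and the oocyte markers (-1.39). So do the MES (-0.76), cohesin (-0.85), other condensin (-0.88), DNA replication (-1.07) and chromatin partner (-1.15) lists. The other condensin list holds capg-1, whose product is also a subunit of the dosage compensation condensin. The sperm markers lie at the other end (4.72).

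The complex acts on X-linked genes as a whole, so their ratios were set beside those of the autosomes, with chromosomes from the RefSeq gene table of assembly WBcel235. The 2258 X-linked genes had a median log2 ratio of -0.23, 0.06, -0.26 and -0.06 on preparations 1 to 4. The 12734 autosomal genes had medians of -0.01, -0.02, -0.02 and 0.03. The X median lay below the autosomal one on 3 arrays and above it on preparation 2. The difference averaged -0.12 ± 0.15 (SD, n = 4, exact sign-flip p = 0.25). The smallest p that 4 arrays allow is 0.13, so the test cannot decide whether X and autosomes differ. Without preparation 2 the mean difference was -0.18. Of the X-linked genes, 30.5% were called lower and 13.9% higher, against 25.6% and 23.0% of the autosomal genes. The parts of the complex and of cell content, such as sperm, in these chromosome values were not tested. The X-linked members sdc-1 and sdc-2 had lower ratios than most X-linked genes, with 11.9% and 12.5% of them below.

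Among the 14650 other named genes with values on 4 arrays, those closest to the per-array median of the complex were R09A8.5, zipt-1, C09D4.4, T22H9.1 and C04F5.9. Their root mean square differences from that profile were 0.04, 0.05, 0.06, 0.06 and 0.06 on the log2 scale over 4 arrays, against a median of 1.04 over all the genes compared. Such close values over 4 arrays are a description of level and pattern only.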

How the data were processed

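The deposited table holds log2 ratios of 20000 probes on 4 arrays, scaled by the authors by a method not given in the sources used here. The base follows from the values: on each array 100% of the ratios below 3, taken as powers of 2, lay on a grid of 0.001 (within 0.01 of that step). Probes were named from the platform annotation, updated to RefSeq symbols of WBcel235 through gene identifiers (15569 probes) or accessions (7), and 79 kept the platform's symbol. Of all probes, 198 had several symbols and 4147 none. Probes of a gene were averaged. An intercept was fitted with limma 3.58.1 in R 4.3.3 (lmFit, eBayes) to features on at least 3 arrays. On simulated data (19214 features, 200 changed), 45% of 2-fold and 98% of 4-fold changes were called, and 11 unchanged features were called. In the real data 8777 features were called. The adjusted p depends on how many features change, so the simulated rates need not hold for the real data. The simulated noise was independent between features. The members, 10 other gene lists and tests were chosen with earlier results of these data known. Genes named are the members, up to 3 called genes of largest absolute ratio per list, 5 fixed genes and the 5 closest to the median profile. The genes set-4, htz-1, mrg-1, mes-2, scc-1, cpg-2, sea-2, ceh-39, fox-1, rbbp-5 and utx-1 fall outside that rule and were named after their values were seen. The same holds for set-2, set-16, ash-2, wdr-5.2, wdr-5.3, pis-1 and cwp-4. Figures used matplotlib 3.10.9. The number of arrays limits the precision. Alternatives changed centring, normalization, missing values, moderation, array weights, probe averaging, threshold, preparations, and the period of the dates in the titles, as a covariate and as a random block.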

Additional observations from a re-analysis of the deposited data

Results flagged for a closer look

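Of 70 sets of values put to this check, 8 had 1 array far from the others. The check needs 4 values and so passed over her-1, which had 3. None of the 8 was a gene of the complex, and chance sets apart about 1 in 20. Preparation 2 was apart for hcf-1 (-2.26), mes-6 (-1.46), mrg-1 (-0.24), the male neuron gene cwp-2 (2.05) and the median of the SET1/MLL list (-0.71). Preparation 4 was apart for sex-1 (-0.16), for the median of the X-counting list, which is the value of sex-1 there (-0.16), and for the sperm gene msp-59 (4.33).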

How the results depend on the processing

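The 7 calls of complex genes were made under every alternative run except the stricter threshold and 3 of the 4 left-out preparations. At an adjusted p under 0.01, 4 genes were called lower, against 13.96% of all features. With 1 preparation left out, 4 to 7 were (4 without preparation 3, 5 without preparation 1, 6 without preparation 2), against 15.3% to 21.9% of all features. The genes mix-1, sdc-1, sdc-2 and dpy-28 were called lower in each of these 4 left-out fits. At most 15.3% of all features could be, the share called lower without preparation 3. Centring on ribosomal protein genes put the median of the complex at -1.31 and shifted all features by -0.40 in the median. Centring on chemoreceptor genes gave -1.26 and -0.34 in the same measures. The complex median was -0.98 to -0.84 with 1 preparation left out. The value of dpy-30 ran from -0.33 to 0.084 with 1 preparation left out, above 0 without preparation 3 (0.084) and preparation 4 (0.04), and stayed uncalled throughout (adjusted p 0.1254 to 0.930). The autosomal signal gene sea-2, never called, stood at 0.032 with array weights and at -0.42 to 0.16 with 1 preparation left out (0.054 without preparation 1, 0.16 without preparation 2). The condensin gene smc-4 was called lower with chemoreceptor centring (-0.69, adjusted p = 0.0281), and array weights gave -0.34 with an adjusted p = 0.0498. Over all features, 4535 were called lower and 4242 higher, and 2683 and 2393 at an adjusted p under 0.01. Leaving out 1 preparation gave 2933 to 4213 lower and 2759 to 3784 higher, with the lowest counts without preparation 3. Higher calls numbered 1624 with ribosomal and 2016 with chemoreceptor centring, which lowered their share of the calls to 26.4% and 26.1%, against 48.3%. The cause of these changes was not tested. No paired analysis was possible because there is only 1 group. Spot intensities were not used here, so signal over background is unknown.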
